A study of Mus musculus with 4 samples.

Results

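The genes of the apolipoproteins were examined in lists of ATACseq peaks (accessible chromatin) and of H2A.Z ChIPseq peaks from mouse liver. The 10 genes (Apoa1, Apoa2, Apoa4, Apoa5, Apob, Apoc1, Apoc3, Apoe, Apoh and Apom) were taken by name from the 21938 protein-coding genes of the GENCODE vM21 annotation (GRCm38). No threshold on a measured value was used, but the set was chosen with earlier results of these data known. Every peak that touched the gene or lay within 10 kb of its transcription start site (TSS) was taken as a peak of that gene. The TSS was the annotated 5′ end of the gene. The Apoa1-Apoc3-Apoa4-Apoa5 and Apoe-Apoc1 clusters were also read as blocks.

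The study compared WT with Uhrf1hepKO liver. All samples came from male C57Bl/6 mice of 8 to 12 weeks on a normal diet. The WT liver carried the floxed Uhrf1-Fl/fl alleles without Cre. The Uhrf1hepKO liver carried Uhrf1-fl/fl together with Alb:Cre, whose albumin promoter acts in hepatocytes, so other liver cells may keep Uhrf1. Uhrf1 encodes the factor that brings the maintenance DNA methyltransferase to newly copied DNA. Each genotype had 1 ATACseq and 1 H2A.Z library, 4 in all. The labels do not say whether both assays of a genotype used the same animal, so "WT liver" and "Uhrf1hepKO liver" stand for the samples of a genotype. With 1 library per condition, no difference between genotypes could be tested against the spread between animals. The lists held 10582 (WT) and 10764 (Uhrf1hepKO) ATACseq peaks and 51450 and 47135 H2A.Z peaks on chromosomes 1 to 19, X and Y. The fold of a peak is a linear ratio, the read pileup plus 1 over the local background plus 1, and each list has its own background. This form was checked for the H2A.Z summits only, since the ATACseq lists hold no summit. The highest q-values listed were 0.0997 (WT) and 0.0993 (Uhrf1hepKO) for ATACseq and 0.05 and 0.0489 for H2A.Z. Uhrf1 had 1 peak within 10 kb of its TSS in each of the 4 lists, so the lists gave no check of the deletion.

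Apolipoproteins are the protein shell of lipoproteins, the particles that carry cholesterol and triglycerides in blood, and most are made in hepatocytes. ApoB is the structural protein of very-low-density lipoproteins, ApoA1 and ApoA2 are the main proteins of high-density lipoproteins, and the exchangeable ApoA4, ApoA5, ApoC and ApoE proteins act as ligands of receptors or tune the lipases. H2A.Z is a variant of histone H2A that commonly sits in the nucleosomes beside active or poised promoters and enhancers, and ATACseq peaks mark DNA that the Tn5 transposase can reach.

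The stretches of DNA on which the comparison turned are shown first, 5′ to 3′, from GRCm38. The upstream bases of Apoa1, Apob and Apoe are shown because no list had a peak there, those of Apoa2 because its nearest peaks lay further upstream, and those of the inner Apoh start because a peak of the WT liver ended in them. Each runs from 250 bases before the RefSeq start to the first annotated exon, so no exon is included, and those of the inner Apoh start lie between exons of the annotated Apoh gene. Capitals mark matches on either strand to 7 motifs: AGGTCA (the core of nuclear receptor sites), CAAAGTCCA (HNF4), TGTTTAC (FOXA), GTTAAT (HNF1), TTGCGCAA (C/EBP), TATAAA (the TATA box) and GGGCGG (SP1). No motif is contained in another.
Apoa1 promoter (chr9:46228380-46228579, plus strand): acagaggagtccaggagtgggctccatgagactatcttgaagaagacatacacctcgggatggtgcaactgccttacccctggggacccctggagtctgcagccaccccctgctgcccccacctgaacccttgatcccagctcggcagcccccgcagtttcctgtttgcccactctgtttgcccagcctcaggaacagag
Apob promoter (chr12:7977427-7977647, plus strand): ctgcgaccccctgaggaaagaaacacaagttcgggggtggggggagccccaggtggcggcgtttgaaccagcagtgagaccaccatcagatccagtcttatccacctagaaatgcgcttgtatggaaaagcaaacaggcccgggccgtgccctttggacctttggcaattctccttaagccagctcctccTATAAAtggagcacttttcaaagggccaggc
Apoe promoter (chr7:19699189-19699438, minus strand): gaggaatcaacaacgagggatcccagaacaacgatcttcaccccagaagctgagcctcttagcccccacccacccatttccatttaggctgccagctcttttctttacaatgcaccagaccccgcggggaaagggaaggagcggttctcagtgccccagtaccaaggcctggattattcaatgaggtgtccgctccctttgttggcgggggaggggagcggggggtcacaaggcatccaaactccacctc
Apoa2 promoter (chr1:171224804-171225053, plus strand): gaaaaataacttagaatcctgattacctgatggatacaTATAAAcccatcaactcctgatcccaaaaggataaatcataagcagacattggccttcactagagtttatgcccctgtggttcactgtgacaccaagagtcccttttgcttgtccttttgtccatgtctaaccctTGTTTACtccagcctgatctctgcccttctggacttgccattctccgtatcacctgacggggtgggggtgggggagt
Apoh inner promoter (chr11:108395047-108395292, plus strand): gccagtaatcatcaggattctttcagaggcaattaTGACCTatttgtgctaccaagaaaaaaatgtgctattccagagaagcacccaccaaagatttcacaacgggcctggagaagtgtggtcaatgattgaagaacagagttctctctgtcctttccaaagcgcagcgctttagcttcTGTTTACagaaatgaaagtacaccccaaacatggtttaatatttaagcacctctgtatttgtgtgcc

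RefSeq promoters of 300 bases (250 before the start and 50 after it) were at hand for 8 of the 10 genes, and those of Apoc1 and Apoc3 were not. TATAAA was found in 3 of the 8 (Apoa2, Apoa5 and Apob) and in 13.6% of all 32851 RefSeq mouse promoters. TGTTTAC was found in 2 (Apoa2 and Apoh) and in 3.65% of all promoters, and AGGTCA in 1 (Apoh) and in 16.3%. The other 4 motifs had no match in the 8 promoters. GGGCGG, the SP1 motif, was in 35.7% of all promoters, GTTAAT in 7.10%, CAAAGTCCA in 0.475% and TTGCGCAA in 0.183%. A match is a string of letters anywhere in the window, and its distance from the start was not considered. In the printed stretches, TATAAA stood close to the first exon at Apob but near the far end at Apoa2. No match was tested for binding.

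A selection of peaks is shown next, some listed in the WT alone and some in both genotypes. The Apoa2 stretch is the ATACseq peak nearest to its TSS. The stretch between Apoa4 and Apoa5 is the H2A.Z peak with the highest fold in that cluster. The Apoh stretches are an intronic H2A.Z peak of both genotypes, the DNA between that peak and the next, and the WT peak at the inner start. The Apom stretch is the upstream H2A.Z peak of both genotypes, from its end nearest to the gene to 100 bases past the WT summit.
Apoa2 WT ATACseq peak (chr1:171223935-171224062, plus strand): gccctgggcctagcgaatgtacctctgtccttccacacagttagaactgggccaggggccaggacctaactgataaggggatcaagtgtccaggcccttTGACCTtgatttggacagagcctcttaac
Apoa4-Apoa5 WT H2A.Z peak (chr9:46256626-46256728, plus strand): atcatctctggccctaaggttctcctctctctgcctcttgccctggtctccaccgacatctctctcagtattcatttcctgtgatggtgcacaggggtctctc
Apoh intron, shared H2A.Z peak (chr11:108385209-108385357, plus strand): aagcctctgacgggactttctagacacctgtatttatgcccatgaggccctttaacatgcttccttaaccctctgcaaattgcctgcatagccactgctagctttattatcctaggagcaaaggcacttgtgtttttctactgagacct
Apoh intron, between the H2A.Z peaks (chr11:108385362-108385612, plus strand): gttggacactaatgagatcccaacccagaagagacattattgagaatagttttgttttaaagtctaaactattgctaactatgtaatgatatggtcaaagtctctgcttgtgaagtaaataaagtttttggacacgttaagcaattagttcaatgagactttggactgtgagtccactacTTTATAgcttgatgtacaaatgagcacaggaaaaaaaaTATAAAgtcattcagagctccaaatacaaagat
Apoh WT H2A.Z peak upstream of the inner start (chr11:108394898-108395052, plus strand): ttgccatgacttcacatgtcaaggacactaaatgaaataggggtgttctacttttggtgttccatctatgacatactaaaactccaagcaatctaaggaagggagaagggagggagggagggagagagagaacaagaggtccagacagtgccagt
Apom upstream H2A.Z peak (chr17:35132221-35132375, minus strand): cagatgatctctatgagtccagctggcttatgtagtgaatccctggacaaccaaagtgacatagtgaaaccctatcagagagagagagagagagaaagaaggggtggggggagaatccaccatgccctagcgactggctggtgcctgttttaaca

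All 6 of these stretches lay outside annotated exons. The Apoa2 ATACseq peak held AGGTCA on the minus strand, as did 9.75% of windows of the same length centred on the WT ATACseq peaks. The DNA between the Apoh peaks held TATAAA at 2 places, and 13.0% of windows of that length centred on WT H2A.Z peaks held it. The other 4 stretches matched none of the motifs.

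Of the 10 genes, 4 (Apoa2, Apoa4, Apoh and Apom) had a peak in at least 1 list and 6 (Apoa1, Apoa5, Apob, Apoc1, Apoc3 and Apoe) had none. The 6 genes without a peak hold the structural protein of very-low-density lipoproteins, the main protein of high-density lipoproteins and the receptor ligand ApoE. In the WT liver, 1 of 10 genes had an ATACseq peak and 4 of 10 an H2A.Z peak, whereas 34.4% and 58.4% of protein-coding genes had such a peak within 10 kb of the TSS. In the Uhrf1hepKO liver, the counts were 1 and 2 of 10, against 32.4% and 56.5% of genes. Of all protein-coding genes, 36.1% had no peak in any of the 4 lists within 10 kb.

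Within 1 kb of the TSS, the counts were 1 (WT) and 0 (Uhrf1hepKO) of 10 for ATACseq, against 26.4% and 24.1% of all genes. For H2A.Z they were 2 of 10 in both genotypes, Apoh and Apom, against 46% and 44.5%. Apoh counts here through its annotated 5′ end, which lies beside the start of Prkca. At its inner RefSeq start, only the WT list had an H2A.Z peak so close. For 7 of the 10 genes, and for 50.1% of all genes, no list had a peak so close to the TSS. A gene without a listed peak may still have had signal under the caller's limit.

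**Figure D1:**
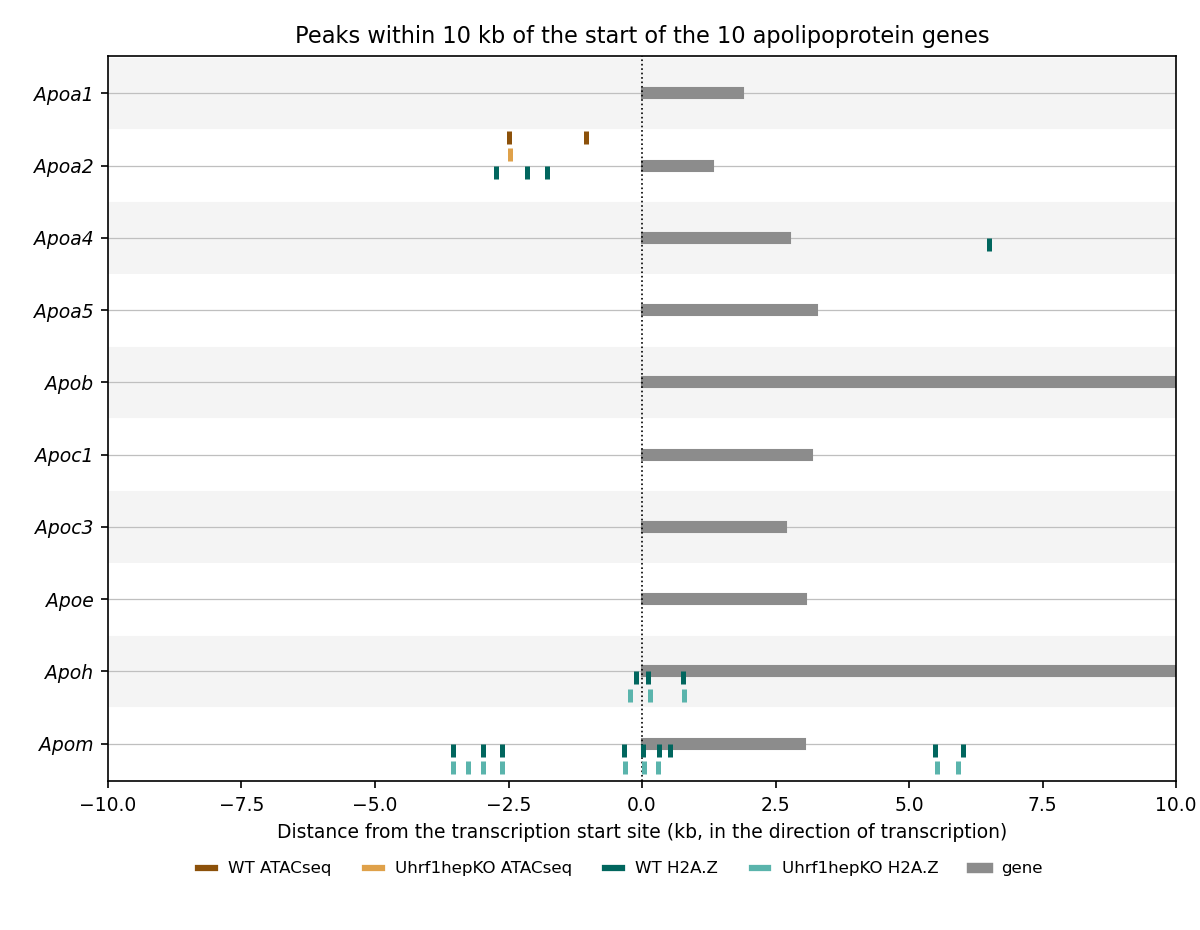
Each row is an apolipoprotein gene (grey bar), the x axis is the distance from its TSS in kb in the direction of transcription, and ticks are peaks of the 4 lists by colour, plotted at the middle of the peak. ATACseq ticks stand only at Apoa2, H2A.Z ticks at Apoa2, Apoa4, Apoh and Apom, and the other 6 rows are empty.

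Most of these genes start in DNA with few CpGs, the sites that Uhrf1 helps to keep methylated. Within 500 bp of the TSS, the 10 genes had a median of 16 CpGs (9 at Apoa4 to 84 at Apoh), against a median of 41 over all protein-coding genes. Apoh stood apart from the other 9, of which Apoe had the most, 29. This held for its annotated 5′ end only, since its inner starts had 12 CpGs each. At most 20 CpGs were counted at 7 of the 10 genes (Apoa1, Apoa2, Apoa4, Apoa5, Apoc1, Apoc3 and Apom). Of these 7, 1 had an ATACseq peak within 10 kb in each genotype, and 3 (WT) and 1 (Uhrf1hepKO) had an H2A.Z peak. Among all 7863 protein-coding genes with at most 20 CpGs, the shares were 11.9% and 12.3% for ATACseq and 28.9% and 27.9% for H2A.Z. Within 1 kb, 1 (WT) and 0 (Uhrf1hepKO) of the 7 had an ATACseq peak and 1, Apom, an H2A.Z peak in both genotypes, against 2.54%, 2.59%, 9.60% and 9.21% of genes with at most 20 CpGs.

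**Figure D2:**
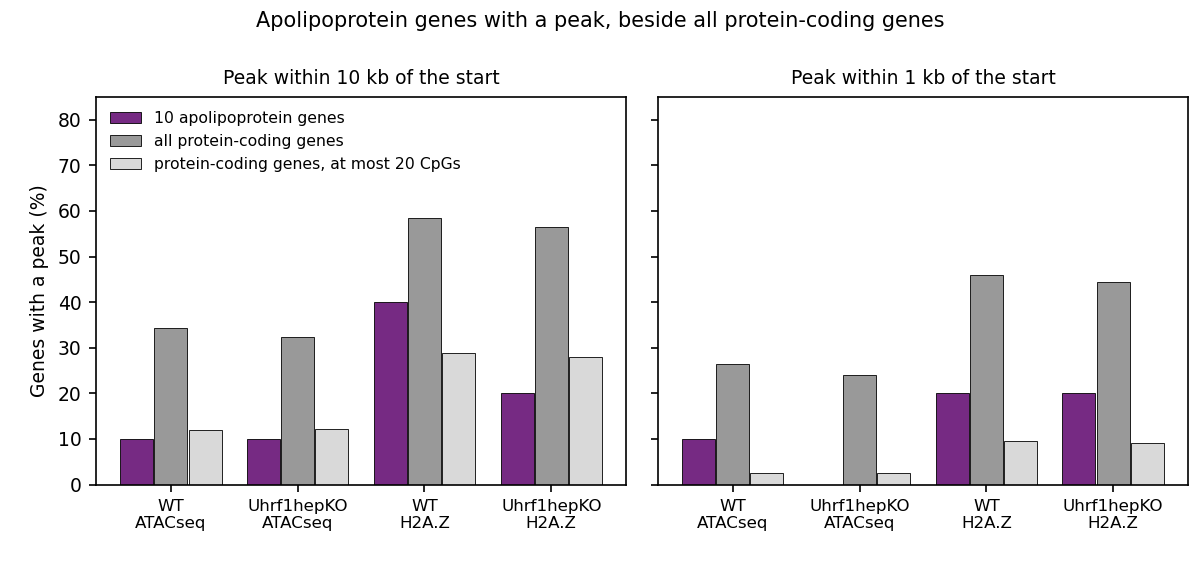
The y axis is the percent of genes with a peak and the x axis gives the 4 lists, for the 10 apolipoprotein genes (purple), all protein-coding genes (dark grey) and protein-coding genes with at most 20 CpGs within 500 bp of the TSS (light grey), within 10 kb (left) and 1 kb (right). The members' bars are below those of all genes in each list of both windows, and the WT H2A.Z bars of the members stand between the grey bars in both windows.

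The members had 38 peaks in all, 35 of H2A.Z and 3 of ATACseq. The lists held 2 (WT) and 1 (Uhrf1hepKO) of the ATACseq peaks and 20 and 15 of the H2A.Z peaks. Of the 38, 20 were nearest to a transcript start of the member itself and 18 to a start of another protein-coding gene. The H2A.Z folds ranged from 3.66 to 12.4 in the WT liver (median 4.87) and from 3.25 to 11.9 in the Uhrf1hepKO liver (median 5.81). Over each whole list, the medians were 5.12 and 5.35. All 3 ATACseq peaks had a fold below the median of their list, 4.31 in the WT and 4.05 in the Uhrf1hepKO liver.

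An H2A.Z peak of the WT liver overlapped a Uhrf1hepKO peak in 14 of 20 cases, the same share as in the whole list, 70%. In the other direction the count was 13 of 15, against 75.6% of all Uhrf1hepKO H2A.Z peaks. For ATACseq, 1 of 2 WT peaks and the 1 Uhrf1hepKO peak overlapped a peak of the other genotype, against 61.3% and 60.3% of each list. Thus 6 H2A.Z peaks were listed in the WT liver alone, 3 at Apoa2 and 1 each at Apoa4, Apoh and Apom, and 2 in the Uhrf1hepKO liver alone, at Apoh and Apom.

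The number of H2A.Z reads over each summit was recovered from the deposited fold and p-value, which fix a whole number of reads and the local background together. All 35 summits lay on the general background of their list, which was 3.1 reads per base for WT and 3.3 for Uhrf1hepKO. On that background, the lowest listed summits had 11 (WT) and 12 (Uhrf1hepKO) reads. Intervals given with reads are exact 95% Poisson intervals and cover counting error only. In whole tissue, a signal in fewer cells and a weaker signal per cell cannot be told apart.

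Apoa2, the second most abundant protein of high-density lipoproteins, was the 1 member with an ATACseq peak. It lies on the plus strand at chr1:171225054-171226379, and its neighbour Tomm40l, a homologue of the mitochondrial import channel Tomm40, starts 2540 bp upstream and points away. The WT liver had an ATACseq peak across the Tomm40l start (chr1:171222484-171222639, fold 3.81), with its centre 2493 bp upstream of the Apoa2 TSS. The Uhrf1hepKO liver had it too, at chr1:171222531-171222645 with a fold of 3.41. A further ATACseq peak, at chr1:171223935-171224062 between the genes, was listed in the WT liver alone, with a fold of 3.66. Its near edge was 992 bp from the Apoa2 TSS and it held 1 CpG in 128 bp. A peak this weak was often not shared. Among the 529 WT ATACseq peaks nearest to it in fold rank, 28.9% overlapped a Uhrf1hepKO peak.

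H2A.Z flanked the accessible Tomm40l start in the WT liver. The first peak (chr1:171222275-171222376, fold 5.85) lay 107 bp from the ATACseq peak on its Tomm40l side, in a Tomm40l exon. The second (chr1:171222841-171222951, fold 5.36) lay 201 bp from it on the Apoa2 side, and the third (chr1:171223211-171223352, fold 3.66) 571 bp away. None overlapped the WT ATACseq peaks, and all were nearer to the Tomm40l start than to the Apoa2 TSS. Their summits had 23 reads (14.6 to 34.5), 21 reads (13.0 to 32.1) and 14 reads (7.65 to 23.5).

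Around Apoa2, the Uhrf1hepKO list had no H2A.Z peak in the 10 kb window, and the nearest, at chr1:171247346-171247902 (fold 9.76), was 22292 bp from its TSS. The intervals of 23 and of 21 reads began above 12 reads, the lowest listed summit of the Uhrf1hepKO library, and that of 14 reads included it. These WT intervals leave out the counting error and unknown depth of the Uhrf1hepKO library. They therefore do not show that a peak should have been listed there. Among WT H2A.Z peaks of exactly the same fold, 82.7% (of 2061), 72.0% (of 2771) and 35.6% (of 2153) overlapped a Uhrf1hepKO peak. The absence of all 3 from the Uhrf1hepKO list rests on 1 library in each genotype.

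**Figure D3:**
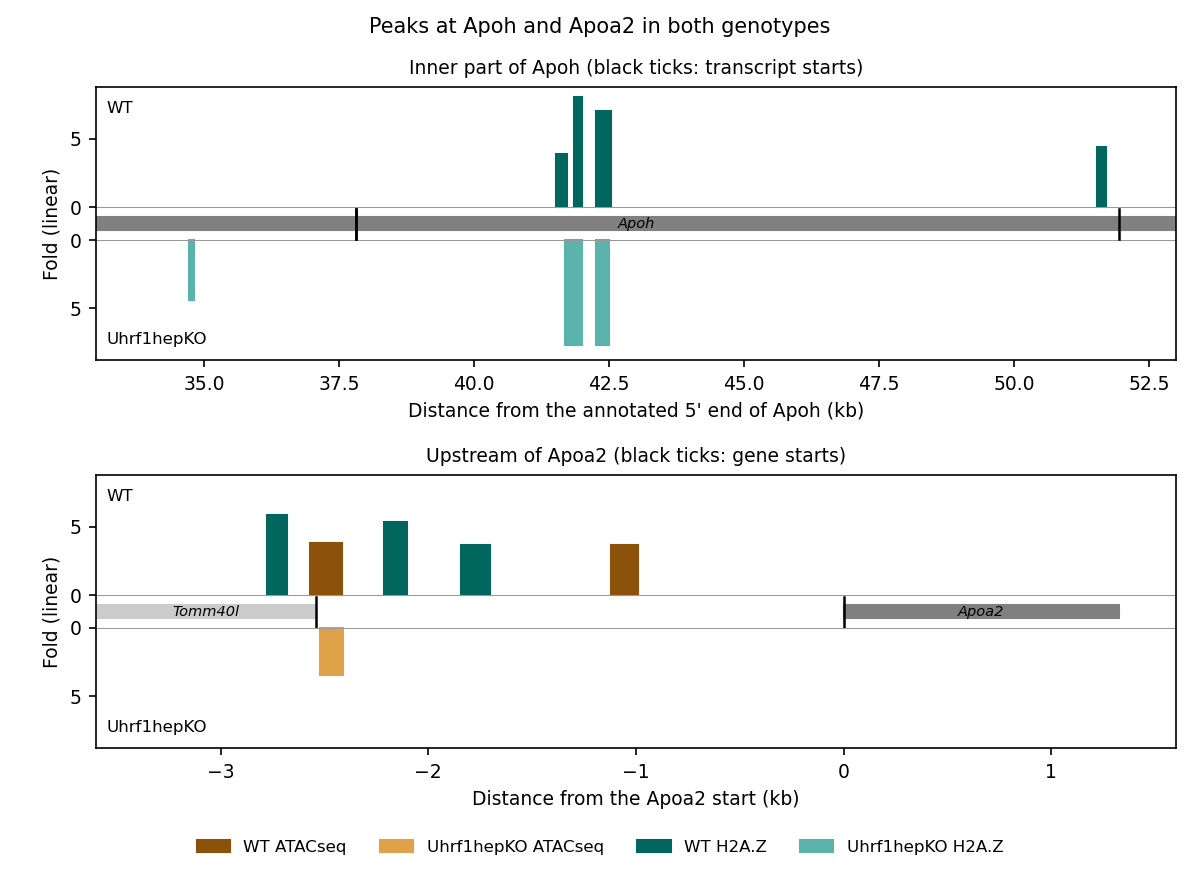
The y axis is the linear fold of each peak, WT upward and Uhrf1hepKO downward, and the x axis is the distance in kb from the annotated 5′ end of Apoh (upper panel) or the Apoa2 TSS (lower panel); bar widths are peak widths and black ticks are starts. The pair of tall Apoh peaks stands in both genotypes, and all H2A.Z bars and 1 ATACseq bar upstream of Apoa2 stand in the WT liver alone.

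Apoa1, Apoc3, Apoa4 and Apoa5 lie together on chromosome 9. ApoC3 slows the clearance of triglyceride-rich particles, ApoA5 promotes it, and ApoA4 is made in liver and intestine. The 4 genes span 43340 bp and their block, with 10 kb on the outer TSSs, spans chr9:46218580-46278633 (60054 bp). No ATACseq peak of either genotype lay in the block. The nearest ATACseq peaks left a span of 447185 bp free of peaks in the WT and of 347065 bp in the Uhrf1hepKO list. Of the gaps between neighbouring ATACseq peaks, 12.3% (WT) and 16.3% (Uhrf1hepKO) were at least as long. A long gap is more likely than a short one to hold a given gene. Such a share of gaps therefore does not show that the stretch was unusually bare for a gene.

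H2A.Z was listed at 2 places in the block, both in the WT liver. The first (chr9:46247139-46247233, fold 4.14, 16 reads) lay 6465 bp past the Apoa4 TSS, between genes. Among WT peaks of the same fold, 47.0% overlapped a Uhrf1hepKO peak. The second (chr9:46256626-46256728, fold 7.07) had a fold above that of 78.5% of the WT list and lay 11905 bp upstream of the Apoa5 TSS, outside the 10 kb window of each gene. It held 1 CpG in 103 bp. Among the 1160 WT peaks of its fold, 96.6% overlapped a Uhrf1hepKO peak. Its absence from the Uhrf1hepKO list rests on 1 library in each genotype. The Uhrf1hepKO liver had no H2A.Z peak over 270246 bp around the 4 genes, and 95.6% of the gaps in its list were shorter. The limit given above for shares of gaps holds here too.

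The downstream neighbour of Apoa5 was bare as well. Zpr1, which encodes a zinc finger protein and starts 4431 bp from the Apoa5 TSS, had no peak within 1 kb in any list. The first peak beyond the block was at the Bud13 promoter in both genotypes, with an H2A.Z fold of 4.39 (chr9:46282794-46282888) in the WT and 5.58 (chr9:46282788-46282894) in the Uhrf1hepKO liver. Thus the edge of the peak-free stretch on that side was the same splicing factor gene in both genotypes.

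Apoe and Apoc1 lie together on chromosome 7. ApoE is the ligand by which remnant particles bind receptors of the liver, and ApoC1 inhibits lipoprotein uptake. The TSSs of the 2 genes are 6528 bp apart and their block, chr7:19682660-19709188, spans 26529 bp. No list had a peak in it. The stretch without a peak of any list was 49724 bp long, and 82.2% of the gaps between peaks of the 4 lists together were shorter. That share counts each gap once, although a gene falls more often in a long gap. It does not show that the stretch was unusually bare for a gene.

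Both ends of this stretch lay at promoters of other genes, the same ones in the 2 genotypes. On one side lay the H2A.Z peaks at Clptm1 (chr7:19665496-19665754, fold 7.31 in the WT, and chr7:19665494-19665753, fold 6.04 in the Uhrf1hepKO liver). On the other lay the ATACseq peaks at Tomm40, the mitochondrial import channel, 16250 bp from the Apoe TSS (chr7:19715482-19715988, fold 5.06, and chr7:19715479-19715982, fold 4.42). H2A.Z peaks adjoined it, with folds of 5.12 and 6.74.

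Apob, on chr12:7977648-8016835, had no peak in any list over its 39188 bp or in the 10 kb upstream. H2A.Z peaks stood further out on both sides of the gene in both genotypes. The upstream peak (chr12:7950291-7950527) had a fold of 8.29 in the WT and 6.51 in the Uhrf1hepKO liver and lay 27121 bp from the TSS. The downstream peak (chr12:8038343-8038536) had folds of 9.51 and 7.44 and lay 21507 bp past the gene. Both were between genes and far from any other coding start, since Apob was the nearest. The span between them, 87815 bp, held no peak of any list. The nearest ATACseq peaks were at Ldah, a lipid droplet hydrolase gene, 230525 bp (WT) and 230564 bp (Uhrf1hepKO) from the Apob TSS.

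Apoh encodes beta-2-glycoprotein I, a plasma protein that binds phospholipid surfaces. In GENCODE it spans 71043 bp (chr11:108343354-108414396) with 4 transcript starts, and the RefSeq start, at 108395297, is 51943 bp inside that span. The outer start has 84 CpGs within 500 bp and overlaps the start of Prkca, which encodes protein kinase C alpha, 574 bp away on the other strand. The inner starts have 12 CpGs each. Apoh had 7 H2A.Z peaks in the WT and 6 in the Uhrf1hepKO liver, and no ATACseq peak.

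The outer start had 3 H2A.Z peaks in both genotypes, which cannot be divided between Apoh and Prkca. In the WT liver these were chr11:108343185-108343295 (fold 4.14, 16 reads), chr11:108343415-108343509 (4.14, 16 reads) and chr11:108344065-108344179 (4.63, 18 reads). In the Uhrf1hepKO liver they were chr11:108343063-108343205 (fold 3.25, 13 reads), chr11:108343400-108343600 (4.42, 18 reads) and chr11:108344075-108344213 (5.81, 24 reads). These 6 peaks held 4.90 to 7.91 CpGs per 100 bp, above the median of the H2A.Z lists, 1.64 (WT) and 1.66 (Uhrf1hepKO).

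A pair of H2A.Z peaks stood in an intron of Apoh in both genotypes, with its first WT summit 41942 bp from the outer start and upstream of the RefSeq start. In the WT liver the pair was chr11:108385209-108385361 (fold 8.04, 32 reads) and chr11:108385620-108385884 (fold 7.07, 28 reads), 258 bp apart. In the Uhrf1hepKO liver it was chr11:108385032-108385357 and chr11:108385613-108385860, 255 bp apart, both with a fold of 7.67 and 32 reads. Another WT peak (chr11:108384870-108385073, fold 3.90, 15 reads) ran into the wider first peak of the Uhrf1hepKO liver.

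The pair had the highest folds of the Apoh peaks and was poor in CpGs (0.61 to 0.81 per 100 bp). No ATACseq peak of either genotype lay in the DNA between its peaks, printed above, which had a GC content of 33.5%. At the inner start itself, the WT liver had a peak 307 bp upstream (chr11:108394898-108395052, fold 4.39, 17 reads) that held no CpG. The Uhrf1hepKO liver had none there, and its nearest peak was 9038 bp away. Of WT peaks with the same fold, 50.4% overlapped a Uhrf1hepKO peak. The Uhrf1hepKO liver had a peak of its own at chr11:108378073-108378175 (fold 4.42, 18 reads), in an exon of the non-coding gene Gm11656 within the Apoh intron.

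Apom encodes a lipocalin of high-density lipoproteins that carries sphingosine-1-phosphate. It had the most peaks of the 10 genes, 9 of H2A.Z in each genotype, and no ATACseq peak. The gene is short (chr17:35128997-35132050, minus strand) and sits in the gene-dense major histocompatibility region. It lies 3128 bp (between TSSs) from Bag6, a chaperone gene that points away from it, and 5677 bp from D17H6S53E. In each genotype, peaks fell in 3 groups, at the starts of Bag6, Apom and D17H6S53E.

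At the Apom start, the WT liver had 4 peaks and the Uhrf1hepKO liver 3. The peak upstream of the TSS was chr17:35132221-35132544 in the WT (fold 4.63, 18 reads, 10.7 to 28.4) and chr17:35132201-35132530 in the Uhrf1hepKO liver (fold 7.44, 31 reads, 21.1 to 44.0). The intervals overlapped. The peak across the TSS had 19 reads in the WT (chr17:35131974-35132075, fold 4.87) and 18 in the Uhrf1hepKO liver (chr17:35131959-35132072, fold 4.42). Its neighbour inside the gene, beside the RefSeq start at 35131801, had 17 reads (chr17:35131669-35131794, fold 4.39) and 16 reads (chr17:35131691-35131822, fold 3.95).

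The fourth WT peak, chr17:35131473-35131571 (fold 4.87, 19 reads), lay in an Apom intron and was not listed in the Uhrf1hepKO liver, where the nearest peak was 120 bp away. Of WT peaks with that fold, 62.1% overlapped a Uhrf1hepKO peak. The upstream peak was CpG-poor in both genotypes (0.62 and 0.61 per 100 bp), and the peak beside the RefSeq start held 3.17 and 4.55 CpGs per 100 bp.

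The peaks with the highest fold in the Apom window belonged to its neighbours. In the Bag6 promoter, a peak had 50 reads in both genotypes (37.1 to 65.9), with a fold of 12.4 in the WT (chr17:35134956-35135117) and 11.9 in the Uhrf1hepKO liver (chr17:35134951-35135101). That fold was above 99.2% and 98.3% of the lists. A further Bag6 promoter peak had 20 reads (chr17:35134537-35134792, fold 5.12) and 24 reads (chr17:35134518-35134811, fold 5.81). The peak inside Bag6 had 21 reads in both genotypes (chr17:35135537-35135632, fold 5.36, and chr17:35135539-35135641, fold 5.11). The Uhrf1hepKO liver alone had chr17:35135238-35135362 (fold 4.42), which held 11.2 CpGs per 100 bp, and the nearest WT peak was 121 bp away. At D17H6S53E, the upstream peak had 35 reads (chr17:35125818-35126258, fold 8.77) and 37 reads (chr17:35125989-35126271, fold 8.83), and the peak inside the gene had 25 reads (chr17:35126463-35126675, fold 6.34) and 29 reads (chr17:35126454-35126587, fold 6.97).

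**Figure D4:**
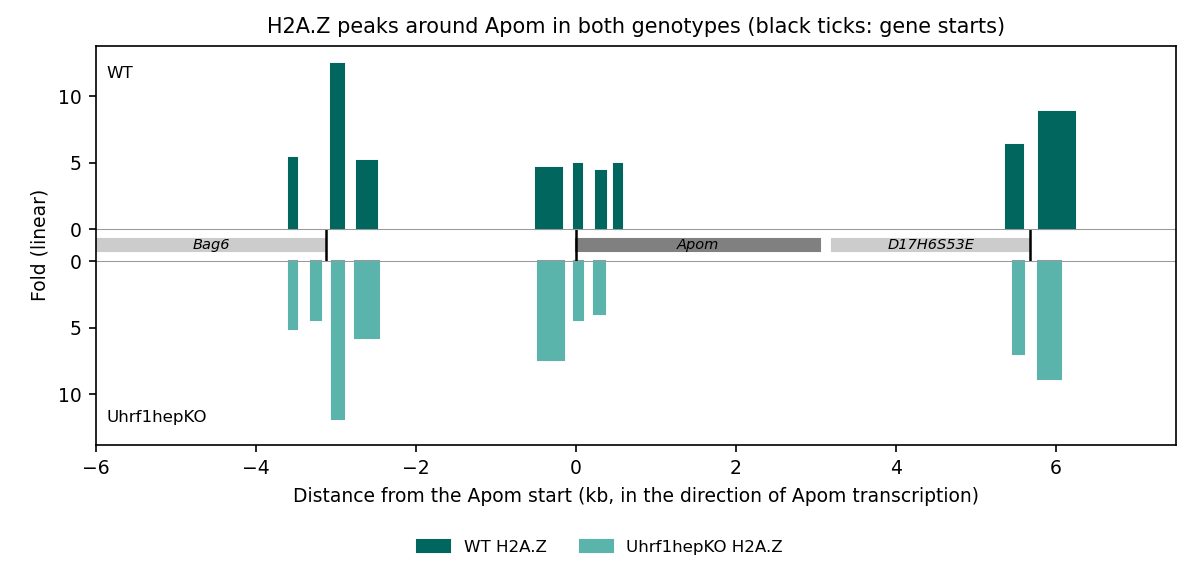
The y axis is the linear fold of each H2A.Z peak, WT upward and Uhrf1hepKO downward, and the x axis is the distance from the Apom TSS in kb; bar widths are peak widths and black ticks are gene starts. Both genotypes show a group of peaks at each of the 3 starts, with the highest bar (12.4 and 11.9) at Bag6.

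Over Apoh and Apom, 14 pairs of overlapping H2A.Z peaks, of 14 WT and 13 Uhrf1hepKO peaks, could be set side by side. The Uhrf1hepKO summit had more reads in 8 pairs, the WT summit in 3, and 3 were equal. The general background of the lists was 3.1 (WT) and 3.3 (Uhrf1hepKO) reads. Among all listed peaks on that background, the median summit had 21 and 23 reads. By fold, a ratio to the background of each list, the Uhrf1hepKO peak was higher in 8 pairs and the WT peak in 6. Among these 6 were all 3 pairs with equal reads. Neither the reads nor the folds were adjusted for library depth, which was not known, so these counts do not rank the genotypes. The Poisson intervals of the genotypes overlapped in all 14 pairs. The largest difference, 17 reads, was between the weakest WT peak of the Apoh intron (15 reads) and the Uhrf1hepKO peak it ran into (32 reads), whose summits were 244 bp apart. The median distance between summits was 15 bp. 

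**Figure D5:**
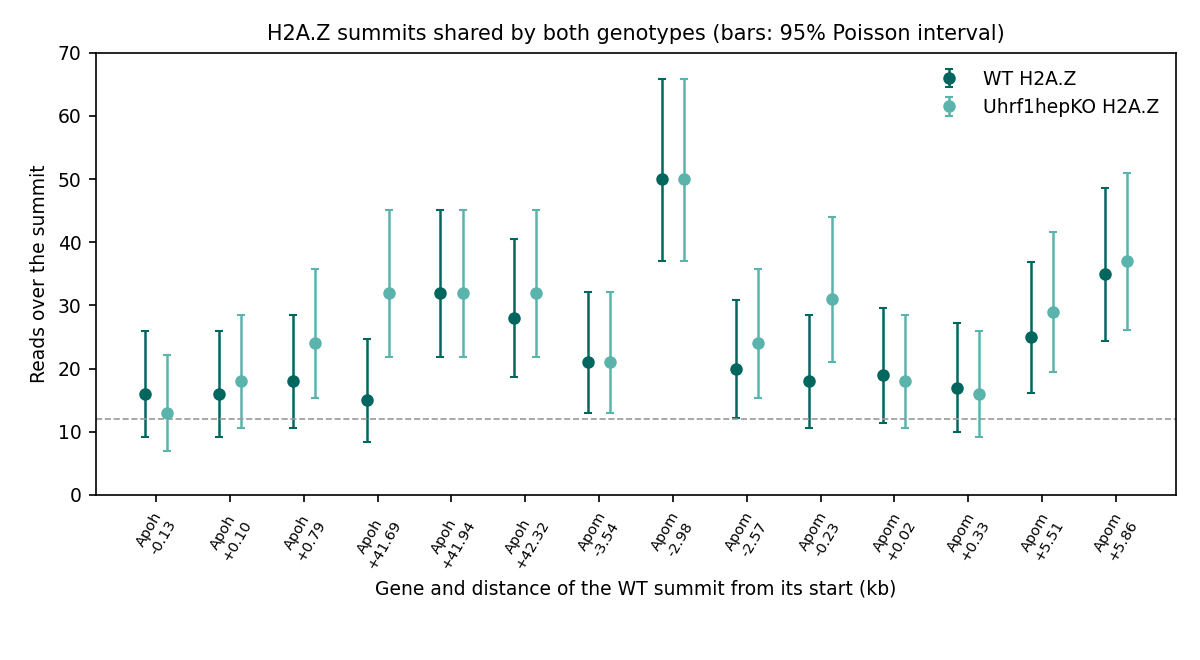
The y axis is the number of H2A.Z reads over the summit with its exact 95% Poisson interval, for the 14 pairs of overlapping peaks at Apoh and Apom in order of their distance from the TSS (x axis, kb); the dashed line is the lowest listed Uhrf1hepKO summit on the general background, 12 reads. The intervals of WT (dark) and Uhrf1hepKO (light) overlap in every pair, and in the fourth Apoh pair the Uhrf1hepKO point is that of the neighbouring summit.

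Other genes of lipoprotein metabolism were counted in 4 lists of 10 genes. Of the 40 genes, 14 (WT) and 11 (Uhrf1hepKO) had ATACseq peaks and 29 and 23 had H2A.Z peaks in the 10 kb around the TSS. Over all protein-coding genes, the shares were 34.4% and 32.4% for ATACseq and 58.4% and 56.5% for H2A.Z. Within 1 kb, the counts were 9 and 7 for ATACseq and 18 and 18 for H2A.Z. The shares of all genes were 26.4% and 24.1% for ATACseq and 46% and 44.5% for H2A.Z. Genes without a peak in any list within 1 kb, the most frequent pattern of the members, were 5 of 10 other apolipoprotein genes (Apoc2, Apoc4, Saa4, Apof and Apod) and 2 of 10 genes of lipoprotein assembly (Creb3l3 and Abcg1). That pattern was also found at 50.1% of all protein-coding genes.

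The highest WT H2A.Z folds within 1 kb of a TSS were at Mttp, which loads lipid onto ApoB (10.2), and Cideb, a lipid droplet protein that serves the same particles (7.56), among the assembly genes. Among receptor genes the highest was at Lsr, the lipolysis-stimulated receptor (7.80). Among remodelling genes they were at Lmf1 (7.80), which matures lipases, and at the lipase Lpl itself (6.09). Among other apolipoproteins they were at the acute-phase genes Saa2 (6.34) and Saa1 (5.61). The Uhrf1hepKO list had a peak within 1 kb of each of these 7 starts, with folds of 9.53 at Mttp, 10.5 at Cideb, 9.06 at Lsr, 8.83 at Lmf1, 5.11 at Lpl, 4.42 at Saa2 and 6.51 at Saa1.

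Marker genes of liver cell types were counted in the same way. Of the 5 hepatocyte markers found in the annotation, 4 (Cps1, Fgb, Serpina1a and Ttr) had no peak in any list within 1 kb of the TSS, and Alb had 1 ATACseq peak, of the Uhrf1hepKO liver (fold 4.18). Of 5 markers each, no peak was listed at 5 of Kupffer cells, 5 of endothelial cells, 3 of cholangiocytes and 4 of stellate cells. No list had a peak within 1 kb at 50.1% of all protein-coding genes. Lists of 5 genes are too short to set marker genes apart from that share. The peak lists therefore gave no check of the tissue by its markers. The part of the cell mixture in any difference between the genotypes was not tested.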

How the data were processed

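Chromatin of WT and Uhrf1hepKO liver was profiled by ATACseq and, after micrococcal nuclease digestion, by H2A.Z ChIPseq, with 1 sample of each. BWA-MEM alignment to GRCm38.p4, PICARD cleaning (duplicates removed for ChIPseq) and MACS2 calls per library were the authors' steps. ATACseq was called in broad mode as paired ends, although single-end reads are described. The H2A.Z mode, MACS2 version and control are not given in the sources used here. Each deposited peak has a display score, a fold and −log10 p- and q-values from the authors' caller. The fold is a ratio of pileup to local background, each plus 1, a form checked for H2A.Z only. The deposited H2A.Z lists also hold another value, the summit position. ATACseq peaks have no summit, so their centre was used.

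Peaks were joined to GENCODE vM21 genes and GRCm38 sequence in Python 3.11.15, with an overlap of at least 1 bp. The members and lists were chosen with earlier results of these data known. The text names all 10 members, neighbours whose TSS was within 1 kb of a member's peak, and, of each lipoprotein list, the 2 genes with the highest WT H2A.Z fold within 1 kb and those without a peak, some of which, in the receptor and remodelling lists, are not reported here. Genes flanking the blocks and Apob were named after their values were seen. Summit reads were solved from fold and p-value as MACS2 defines them, which matched 100% of H2A.Z peaks within 0.001 on the −log10 scale. Of these, 93.6% (WT) and 91.4% (Uhrf1hepKO) lay on the general background. The solution and the counting were tested on simulated data. Library depth was not known, and no test was made, since each condition had 1 library. Promoter sequences are from RefSeq (GRCm38).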

Additional observations from a re-analysis of the deposited data

How the results depend on the processing

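Of 84 values under alternative settings, 58 stayed within their margin (1.5 times for counts, the exact 95% binomial interval for shares) and 26 moved. When only peaks with a fold no lower than their list's median were kept, members with an ATACseq peak went from 1 to 0 in both genotypes and ATACseq peaks to 0, and H2A.Z peaks went from 20 to 9 (WT) and from 15 to 8 (Uhrf1hepKO). With a q-value of at most 0.01, the WT liver kept 1 ATACseq peak, at Tomm40l, and the Uhrf1hepKO liver had 0 peaks and 0 members. The share of WT peaks that overlapped then became 0%. The overlapping Uhrf1hepKO peak at Tomm40l (−log10 q 1.62) missed the limit, which the WT peak (2.18) passed. Within 1 kb and without the gene body, the WT liver had 1 ATACseq peak (0% overlapping), 2 members with H2A.Z and 7 H2A.Z peaks. The Uhrf1hepKO liver then had 0 members with ATACseq, 0 ATACseq peaks and 6 H2A.Z peaks, of which 100% overlapped a WT peak. No share could be given where no peak remained. Over all annotated genes, 21.2% (WT ATACseq), 20.2% (Uhrf1hepKO ATACseq), 39.3% (WT H2A.Z) and 37.9% (Uhrf1hepKO H2A.Z) had a peak within 10 kb of the TSS, and over protein-coding genes with at most 20 CpGs 11.9%, 12.3%, 28.9% and 27.9%. The 5 kb window, the TSS of any transcript, equal peak numbers and both other overlap rules moved no value past its margin. The settings that moved values past their margin counted fewer peaks, smaller windows or other genes, and what drove the moves was not tested. No paired analysis was possible because each condition had 1 library and no test was made. The depth of the libraries limits what an absent peak can show.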
